A study of Mus musculus with 2 samples.

Results

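The genes described here are 9 regulators of helper T cell lineage choice, measured in activated regulatory T cells: the lineage factors Gata3, Tbx21, Rora and Bcl6, the signal transducers Stat3, Stat4 and Stat6, and the ligand-activated factors Ahr and Pparg. They were chosen by symbol, and each of the 9 symbols matched 1 identifier among the 55536 genes of the GENCODE M21 annotation. The rule uses no measured value. Polyadenylated RNA was sequenced from primary cells of an adult male mouse of the strain Foxp3CreERT2 x Rosa26YFP, aged 4 months, which joins a tamoxifen-inducible Cre driven from Foxp3 with a YFP reporter in Rosa26. Both libraries carried these alleles, and the labels name a bone marrow haematopoietic cell as the origin of the cells. There were 2 libraries, technical replicates 1 and 2 of biological replicate 1, so there was 1 group and no second condition. The sources used here do not say how the cells were activated or sorted, whether tamoxifen was given or whether animals were pooled. Library 1 held 15076048 and library 2 held 14635787 estimated gene reads.

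Helper T cells take on distinct programmes under master transcription factors: T-bet (encoded by Tbx21) for type 1, GATA3 for type 2, ROR factors for type 17 and BCL6 for follicular helper cells. Cytokine receptors reach these factors through Janus kinases and STAT proteins, with STAT4 acting downstream of interleukin-12, STAT6 downstream of interleukin-4 and STAT3 downstream of interleukins 6, 10, 21 and 23. Regulatory T cells can express the same factors beside Foxp3, and GATA3, RORα, AHR and PPARγ are known from regulatory T cells that reside in tissues.

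Some of these genes are annotated with more than 1 start site or more than 1 coding end. The sequences below show where the products or the start regions part. Rora was represented by a pair of transcripts with separate first coding exons and different 3′ ends. The estimated reads were split almost evenly between these transcripts, counted over their whole length. Their coding sequences begin as follows, 5′ to 3′, with the first 18 shared bases in capitals.
Rora-202: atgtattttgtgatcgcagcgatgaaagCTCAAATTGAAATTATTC
Rora-201: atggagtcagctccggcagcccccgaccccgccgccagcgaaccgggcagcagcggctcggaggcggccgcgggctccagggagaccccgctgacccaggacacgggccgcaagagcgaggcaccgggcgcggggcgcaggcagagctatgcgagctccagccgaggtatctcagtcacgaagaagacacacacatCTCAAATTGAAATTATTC
Rora-202 contributed 28 coding bases of its own and Rora-201 contributed 196, after which both share the same 1376 bases to the stop codon, so that the encoded proteins, known as RORα4 and RORα1, have 467 and 523 residues. Stat3 parted at the other end. The full-length form Stat3-203 and the shorter Stat3-202, whose structure is that of the form known as STAT3β, share their first 2145 coding bases. Their coding ends are shown with the last 18 shared bases in capitals.
Stat3-203: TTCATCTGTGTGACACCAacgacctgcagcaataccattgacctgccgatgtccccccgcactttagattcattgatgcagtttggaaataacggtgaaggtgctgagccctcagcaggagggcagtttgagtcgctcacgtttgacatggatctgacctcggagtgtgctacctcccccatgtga
Stat3-202: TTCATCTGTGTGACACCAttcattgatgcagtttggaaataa
Stat3-203 carried 168 coding bases beyond the shared part, which encode most of the transactivation domain, and Stat3-202 carried 24, which gives proteins of 770 and 722 residues.

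Stat4 and Bcl6 each had a pair of start sites in RefSeq, and these 250-base windows before the start (GRCm38.p6, read along the gene's strand) are shown because reads were assigned to transcripts from both Stat4 starts but from only 1 of the Bcl6 starts. In the Stat4 windows, capitals mark AGGTCA, the element bound by ROR factors and other nuclear receptors. In the Bcl6 windows, capitals mark TTCNNNGAA, the palindrome that STAT dimers recognise.
Stat4-202 start, chr1:51986898-51987147, plus strand: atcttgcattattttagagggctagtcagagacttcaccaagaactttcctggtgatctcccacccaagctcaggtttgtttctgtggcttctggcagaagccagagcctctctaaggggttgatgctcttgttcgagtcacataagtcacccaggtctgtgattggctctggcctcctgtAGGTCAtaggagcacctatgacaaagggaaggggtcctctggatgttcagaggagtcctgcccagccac
Stat4-201 start, chr1:52007990-52008239, plus strand: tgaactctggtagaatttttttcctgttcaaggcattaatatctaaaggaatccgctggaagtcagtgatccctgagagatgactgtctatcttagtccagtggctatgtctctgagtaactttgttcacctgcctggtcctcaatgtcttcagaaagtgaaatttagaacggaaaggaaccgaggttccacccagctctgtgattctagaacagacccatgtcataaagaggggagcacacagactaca
Bcl6-201 start, chr16:23988853-23989102, minus strand: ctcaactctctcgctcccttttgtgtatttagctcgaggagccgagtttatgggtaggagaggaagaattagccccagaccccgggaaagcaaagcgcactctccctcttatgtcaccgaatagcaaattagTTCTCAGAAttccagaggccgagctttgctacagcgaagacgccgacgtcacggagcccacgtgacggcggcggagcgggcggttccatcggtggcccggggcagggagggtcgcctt
Bcl6 second start, chr16:23981284-23981533, minus strand: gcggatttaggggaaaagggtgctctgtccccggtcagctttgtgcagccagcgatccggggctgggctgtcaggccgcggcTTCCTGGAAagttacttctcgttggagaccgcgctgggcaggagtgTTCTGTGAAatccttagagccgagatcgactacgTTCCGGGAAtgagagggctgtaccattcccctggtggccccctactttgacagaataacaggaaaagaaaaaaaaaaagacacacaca
Windows were given for 8 of the 9 genes, 12 windows in all. Both strands were searched for exact letters, and overlaps between motifs were allowed. The STAT palindrome stood in 2 of these 12 windows, both of them Bcl6 windows, and in 7.02% of all 32851 windows. The Bcl6-201 window held TTCTCAGAA at 118 bases before the start. The second Bcl6 window held 3 matches: TTCCTGGAA at 168, TTCTGTGAA at 122 and TTCCGGGAA at 88 bases before the start. The first of the 3 also matched TTCCTNGAA, searched as the BCL6 core, which stood in 1.31% of all windows, and any match to those letters is also a match to the STAT palindrome. AGGTCA stood in 4 of the 12 windows and in 14.0% of all windows, GCGTG (the AHR core) in 2 and in 28.2%, GGTGTGA (bound by T-box factors) in 1 and in 3.33%, and GATAA (bound by GATA factors) in 0 and in 22.6%. These matches describe letters in the windows only. The windows also differed in base composition. The Gata3 window was 70.0% G and C with 19 CpG sites, against a median of 52.4% and 6 CpG sites over all windows. The Stat4-202 window was 51.6% with 1 CpG site and the Stat4-201 window 44.0% with 3.

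The levels of the 9 genes fell into an upper set of 5 and a lower set of 4. Stat4, Stat6, Gata3, Stat3 and Rora lay between 46.8 and 118 TPM in each library, and Ahr, Tbx21, Bcl6 and Pparg between 0.35 and 6.92 TPM. TPM is a level scaled by transcript length and to a fixed total, so it can be set side by side between genes. Thus 5 of the 9 (55.6%) reached 10 TPM, against 6720 of 22028 protein-coding genes (30.5%). The median of the 9 was 47.2 TPM and that of all protein-coding genes 0.59 TPM. Means ± SD below are over the 2 technical libraries of 1 biological sample (n = 2), so an SD covers only technical differences and says nothing of the spread between animals. In bulk RNA, fewer cells that express a gene and less of its RNA per cell cannot be told apart.

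**Figure D1:**
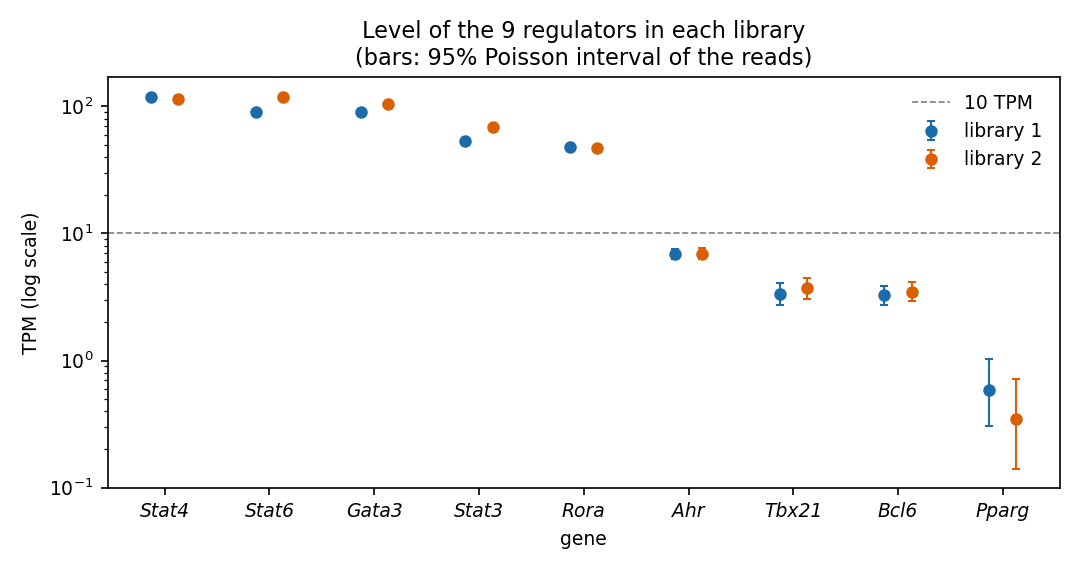
TPM of the 9 regulators (log axis) in library 1 and library 2, ordered by mean, with 95% Poisson intervals of the estimated reads, which cover counting error only. The 5 genes on the left lie above 46 TPM in both libraries, and Pparg has the widest intervals, from 12 and 7 reads.

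Gata3 (ENSMUSG00000015619.10, chromosome 2 from 9857078 to 9890034 on mm10, minus strand) stood at 90.4 TPM in library 1 and 104 TPM in library 2 (97.4 ± 9.90). It ranked 1244th of the 22028 protein-coding genes by mean TPM and was the highest of the 4 lineage factors in both libraries. Foxp3, the factor that defines regulatory T cells, was at 23.8 and 20.9 TPM, and the ratio of Gata3 to Foxp3 was 4.39 ± 0.85 by TPM. By the deposited whole-number counts, which were made on the older GENCODE M4 annotation and are here divided by length, the same ratio was 1.60 ± 0.29, and with protein-coding transcripts only it was 15.3 and 43.6 in the libraries, since most Foxp3 TPM was assigned to other transcripts. Of its paralogues, the erythroid and mast cell factor Gata1 was at 21.9 and 24.7 TPM, and Gata2 had 0 reads in both libraries. The ratio of Gata3 to Gata1 was 4.18 ± 0.060 by TPM and 2.04 ± 0.040 by the M4 counts.

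Rora (ENSMUSG00000032238.17, chromosome 9 from 68653786 to 69388246, plus strand), which encodes the nuclear receptor RORα, stood at 47.6 and 46.8 TPM (47.2 ± 0.60). The libraries gave almost the same level, and Gata3 was 2.06 ± 0.24 times as abundant. Its paralogue Rorb was at 0.39 and 0.42 TPM, from 40 and 37 reads, so nearly all reads of this pair came from Rora.

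Tbx21 (ENSMUSG00000001444.2, chromosome 11 from 97098071 to 97115331, minus strand), which encodes T-bet, stood at 3.37 and 3.71 TPM (3.54 ± 0.24), from 102 and 106 reads. The counting intervals were 2.75 to 4.09 TPM in library 1 and 3.04 to 4.49 TPM in library 2, and they overlapped. Eomes, the T-box factor closest to T-bet in its role in lymphocytes, was lower, at 0.07 and 0.32 TPM from 2 and 11 reads.

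Bcl6 (ENSMUSG00000022508.5, chromosome 16 from 23965052 to 23988852, minus strand), a repressor that directs follicular T cells, stood at 3.26 and 3.49 TPM (3.38 ± 0.16), from 141 and 143 reads. Prdm1, which encodes its antagonist BLIMP-1, was at 10.5 and 11.6 TPM, and the ratio of Prdm1 to Bcl6 was 3.27 ± 0.077. The library values of Tbx21 and Bcl6 overlapped, so these genes did not differ beyond their spread. Rora exceeded Tbx21 13.4 ± 1.08 times by TPM and 8.01 ± 1.89 times by the M4 counts per length.

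Among the STATs chosen here, Stat4 (ENSMUSG00000062939.11, chromosome 1 from 51987148 to 52107189, plus strand) stood at 118 and 113 TPM (116 ± 3.10), the highest mean of the 9 genes. Stat6 (ENSMUSG00000002147.18, chromosome 10 from 127642986 to 127660957, plus strand) stood at 89.9 and 118 TPM (104 ± 19.8). Stat3 (ENSMUSG00000004040.16, chromosome 11 from 100885098 to 100939540, minus strand) stood at 53.7 and 68.4 TPM (61.0 ± 10.4). Stat4 was above Stat6 in library 1 and below it in library 2, with ratios of 1.31 and 0.96, so their order was not fixed by these libraries. Stat6 and Gata3 also overlapped, while Gata3 and Stat4 did not. Stat3 was the lowest of these STATs in both libraries, and the ratio of Stat6 to Stat3 was 1.70 ± 0.035. Stat4 ranked 1063rd, Stat6 1167th and Stat3 2043rd of the 22028 protein-coding genes.

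Stat4 exceeded Stat3 1.93 ± 0.38 times by TPM and 3.66 ± 0.86 times by the M4 counts per length, so the size of that ratio depends on which deposited table is read. Stat2, Stat5b and Stat5a, the last pair acting downstream of interleukin-2, set these levels beside others of the family, and all 3 were above 10 TPM. Stat2 was at 34.5 and 30.9 TPM, Stat5b at 20.99 and 27.5 TPM and Stat5a at 18.03 and 25.5 TPM. Each of the 3 lay below Stat3, Stat4 and Stat6 in both libraries. Stat3 was 2.52 ± 0.050 times as abundant as Stat5b and 2.83 ± 0.21 times as abundant as Stat5a by TPM. By the M4 counts per length these ratios were 4.13 ± 0.24 and 2.72 ± 0.19, so Stat5a was then the higher of the pair. Stat6 exceeded Stat2 3.21 ± 0.85 times. Stat6 and Stat2 share chromosome 10 but lie 609601 bases and 26 protein-coding genes apart. Stat3 overlaps the end of Stat5a by 72 bases on the opposite strand, and Stat5b begins on the other side of Stat5a.

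**Figure D2:**
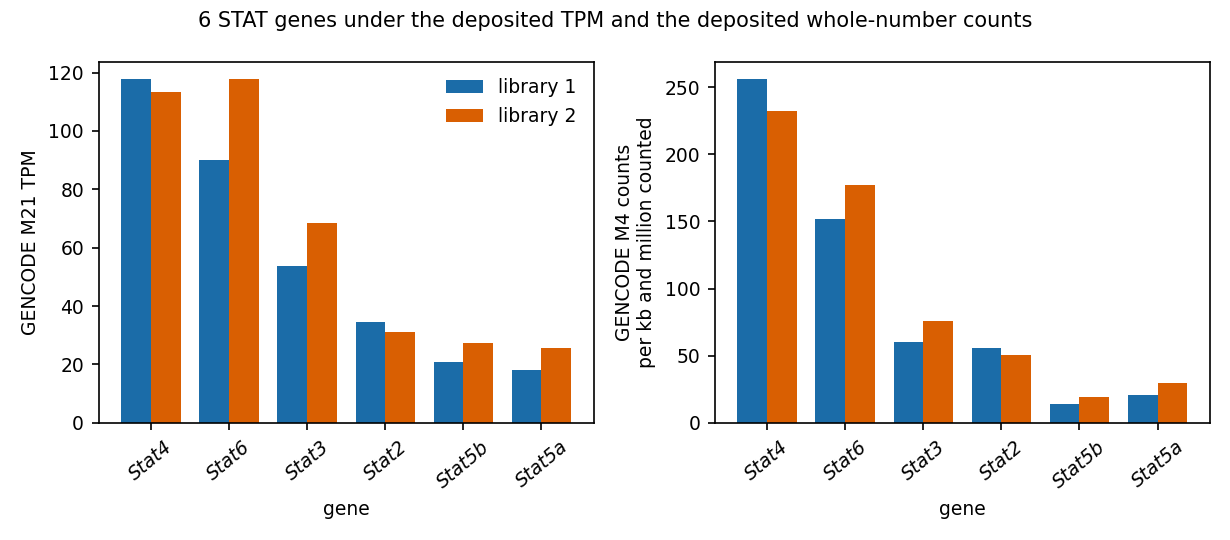
Levels of 6 STAT genes in each library, as deposited TPM on the left and as deposited M4 whole-number counts per kb, scaled to the total counted, on the right (linear axes from 0). Stat4, Stat6 and Stat3 stand above Stat2, Stat5b and Stat5a in both panels, and Stat4 exceeds Stat3 by 1.93 times on the left and 3.66 times on the right.

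Ahr (ENSMUSG00000019256.17, chromosome 12 from 35497974 to 35535038, minus strand), a receptor for dietary, microbial and environmental ligands, stood at 6.92 TPM in both libraries, from 418 and 414 reads. The counting intervals ran from 6.27 to 7.61 and from 6.27 to 7.62 TPM. Ahr was the highest of the lower set, at 1.96 ± 0.13 times the level of Tbx21 by TPM, and Rora was 6.82 ± 0.087 times above it. By the M4 counts per length, the ratio of Ahr to Tbx21 was 1.24 in library 1 and 0.74 in library 2, so this order rests on the M21 tables.

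Pparg (ENSMUSG00000000440.12, chromosome 6 from 115360951 to 115490399, plus strand), a fatty acid-sensing nuclear receptor known from regulatory T cells of visceral fat, was the lowest, at 0.59 and 0.35 TPM (0.47 ± 0.17). It rested on 12 and 7 reads, with intervals of 0.31 to 1.04 and 0.14 to 0.72 TPM. Bcl6, next above it in the order, was 5.53 and 9.97 times as abundant by TPM (4.42 ± 1.91 by the M4 counts per length), and their library values did not overlap.

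The transcript tables listed 48 transcripts of the 9 genes. The leading transcript, that with the highest share of its gene's TPM, did not change between libraries for 9 of 9 genes. By share of reads the leader was the same transcript for 8 of 9, with Rora the exception. Each count includes Tbx21, which has 1 transcript, so that its leader could not change. Rora-202, which starts inside the locus at 69289682, took 80.4% and 80.8% of Rora TPM but 49.4% ± 0.52 of Rora reads. Rora-201, which starts 635896 bases upstream at 68653786, took 50.6% ± 0.52 of the reads. The transcripts differ in length, at 2591 and 10878 bases, so the same number of reads gives the shorter a higher TPM. The Rora level itself therefore depends on that split. Rora-201 also runs on to 69388246, past the end of Rora-202 at 69379809, and holds 8654 bases that Rora-202 lacks. Reads over that longer end count towards Rora-201, so the split of reads does not measure the use of each start.

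Reads were assigned to Stat4 transcripts that begin at each of the start sites shown above. Stat4-202, which starts at 51987148, took 70.0% and 66.5% of Stat4 TPM, and Stat4-201, which starts 21095 bases downstream at 52008243, took 14.5% and 17.5%. These transcripts have the same coding sequence, for 748 residues, and differ outside it. By reads their shares were 75.3% ± 2.78 and 19.9% ± 2.64. Stat4-202 and Stat4-201 share 2496 exonic bases and hold 166 and 486 bases that the other lacks. Their shares are therefore estimates and do not measure the use of each start. Stat3-203 took 65.3% and 69.3% of Stat3 TPM and 82.3% ± 1.20 of the reads. Stat3-202, the shorter form, took 7.44% and 6.91% of TPM and 11.8% ± 0.94 of the reads. Stat3-202 also has a longer untranslated part, and reads over it count towards its share.

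Stat6-201, for the protein of 837 residues, took 66.5% and 70.8% of Stat6 TPM and 93.2% ± 0.86 of the reads. Stat6-202, a fragment of 609 bases that is annotated as coding, took 20.8% ± 3.93 of the TPM from 4.26% ± 0.95 of the reads, and all of its bases lie within exons of Stat6-201. For the other genes 1 transcript dominated. Gata3-201 took 99.5% and 98.9% of the TPM, Tbx21-201 is the gene's only transcript, Bcl6-201 took 97.9% and 95.03%, and Ahr-202 took 86.7% and 91.8%. Of the Bcl6 start sites shown above, that of Bcl6-201 was the start of a transcript with 138 and 135 reads. For the second, 0 of the gene's M21 transcripts start within 300 bases, so its use could not be read from these data. Pparg-201 took 90.9% and 100% of the few Pparg reads expressed as TPM. It encodes 505 residues, the length of PPARγ2, and starts 61115 bases from Pparg-202, which encodes the 475 residues of PPARγ1 and was assigned 0 reads. The pair share 1428 coding bases, so 12 and 7 reads give little information on the choice between them.

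Transcripts annotated with a retained intron took part of the TPM of 5 genes. Their share was 24.0% ± 1.82 for Stat3, 15.7% ± 0.37 for Stat4, 10.8% ± 3.55 for Ahr, 10.5% ± 0.91 for Stat6 and 3.52% ± 2.06 for Bcl6. By reads the shares were 5.52% ± 0.39 for Stat3, 4.88% ± 0.14 for Stat4, 1.67% ± 0.60 for Ahr, 2.56% ± 0.093 for Stat6 and 3.91% ± 2.28 for Bcl6, which was smaller than by TPM for the first 4 and slightly larger for Bcl6. Over 4513 protein-coding genes at 10 TPM or more that have such a model, the median share of TPM was 12.5%, with quartiles of 4.34% and 28%. Stat3, Stat4 and Stat6 lay within those quartiles.

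**Figure D3:**
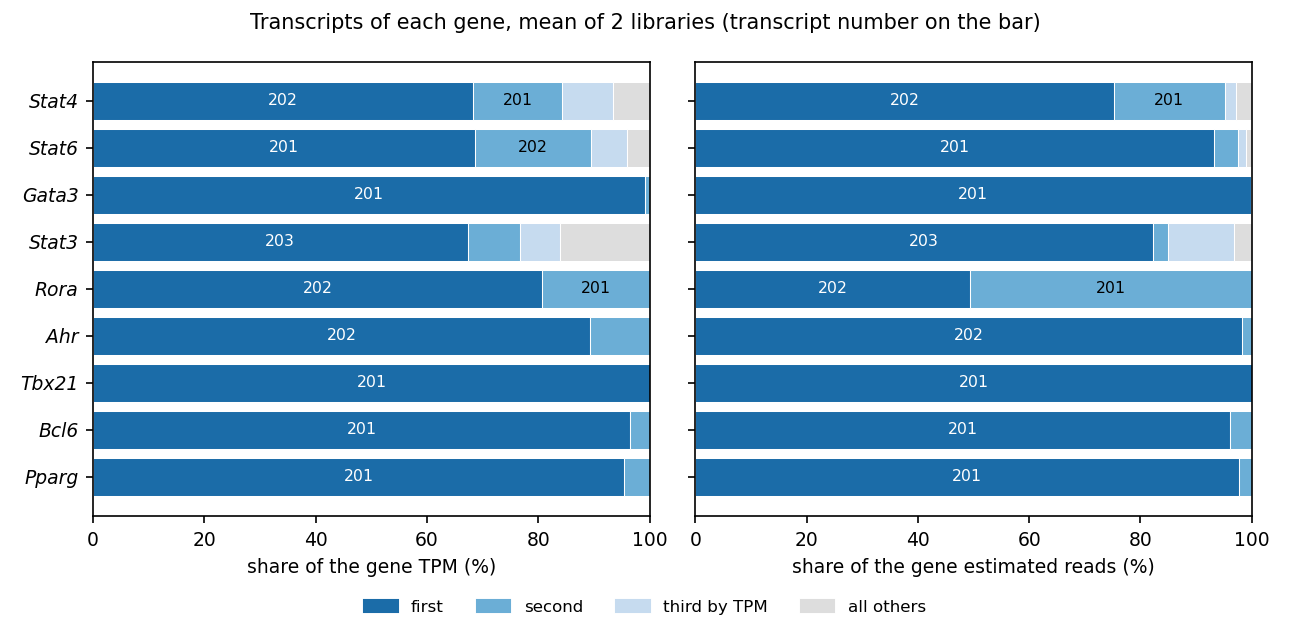
Share of each gene's TPM (left) and of its estimated reads (right) taken by its transcripts, as means of the 2 libraries; the number on a bar is the transcript's number. Rora-202 takes 80.6% of the TPM but 49.4% of the reads, and Stat6-202 takes 20.8% of the TPM from 4.26% of the reads.

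Other genes overlap these loci, and the sources used here do not give strandedness, so reads in the overlaps are uncertain. The processed pseudogene Gm3940 lies on the opposite strand inside Stat4 and was assigned 139 and 105 reads, against 3459 and 3143 for Stat4. Gm28177, on the same strand as Stat4, was assigned 0 and 35.3 reads. The overlapping genes at Gata3 (Gm13256, 4930412O13Rik and 9230102O04Rik) were each assigned 9.02 reads or fewer, against 3536 and 3835 for Gata3. Nab2 shares 40 bases with the end of Stat6, and Gm48236 shares 618 bases with Ahr and was assigned 29 and 25.4 reads.

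The libraries were compared to find how far technical differences reach, and this test compares libraries and not conditions. By an exact two-sided binomial test of the rounded reads with Benjamini-Hochberg adjustment at 0.05, 4198 of 17271 genes tested (24.3%) differed, 2189 (12.7%) higher in library 2 and 2009 (11.6%) higher in library 1. Among the 9 regulators 4 differed, 3 of them higher in library 2. Stat6 had 2986 and 3882 reads and was 33.9% higher in library 2 relative to all reads (log2 ratio 0.42, counting SE 0.035, exact binomial test with adjusted p = 6.3e-31). Stat3, with 2384 and 2978 reads, was 28.7% higher (log2 ratio 0.36, exact adjusted p = 4.53e-18). Gata3, with 3536 and 3835 reads, was 11.7% higher (log2 ratio 0.16, exact adjusted p = 3.59e-05). Stat4 went the other way, with 3459 and 3143 reads and a log2 ratio of -0.10 (exact adjusted p = 0.0342). Rora, with a log2 ratio of -0.08, did not pass (exact adjusted p = 0.162), nor did Ahr, Tbx21, Bcl6 and Pparg.

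Stat6 and Stat3 lay toward the edge of the genes with like numbers of reads. Of 4759 genes with 1000 to 10000 reads summed over both libraries, 97.3% had a smaller ratio than Stat6 and 95% a smaller ratio than Stat3, without regard to sign. In the same depth class 36.3% of genes passed the test. The ratio moved with base composition over the genes of 100 or more reads, taking the GC content of the transcript with the most reads in each: from the quintile of lowest to that of highest GC content, the median log2 ratio was -0.07, -0.03, 0.02, 0.06 and 0.08. Stat6 (53.7% GC) and Stat3 (52.6%) belong to the second highest quintile, Gata3 (49.7%) to the middle, Stat4 (44.4%) to the second lowest and Rora (40.9%) to the lowest. The part of GC content in the library differences of these genes was not tested. With an assumed dispersion of 0.01 between the libraries, edgeR's exact test called 492 genes and 0 of the 9 regulators, of which 1 (Stat6) had an unadjusted p under 0.05, whereas 4 of the 9 passed the binomial test. With all genes of 1 or more reads tested, Stat4 no longer passed and 3 remained.

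**Figure D4:**
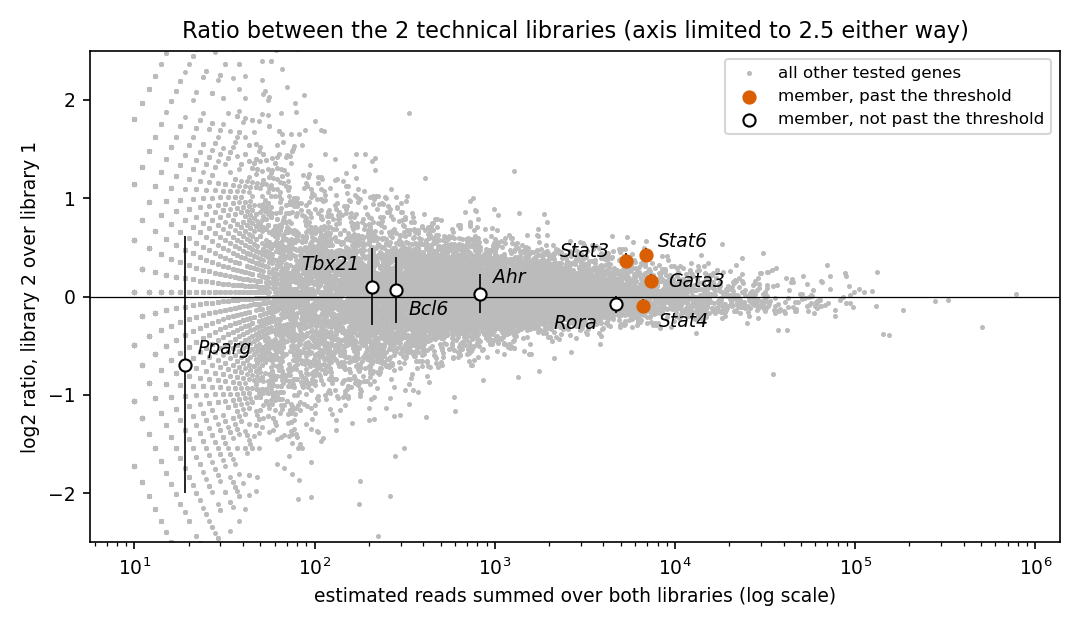
Log2 ratio of library 2 over library 1 against the reads summed over both libraries (log axis), for the 17271 genes tested (grey) and the 9 regulators, with bars of the 95% counting interval. Stat6 and Stat3 lie near the upper edge of the grey points at their depth, and Pparg, with 19 reads, has the widest bar.

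The cytokine receptor chains above STAT3, STAT4 and STAT6 were mostly present, with 11 of 14 at 10 TPM or more. The common gamma chain Il2rg was highest at 1066 and 1258 TPM. Next came the interleukin-27 receptor Il27ra at 140 and 160 TPM and the interleukin-10 receptor chain Il10rb at 81.7 and 91.8 TPM. By the M4 counts per kb, scaled to the total counted, Il27ra (217 and 233) exceeded Il2rg (132 and 135). The chains of the type I interleukin-4 receptor were both present, with Il4ra at 51.2 and 61.4 TPM, and the ratio of Stat6 to Il4ra was 1.84 ± 0.12, or 5.41 ± 1.51 with protein-coding transcripts only. Il13ra1, which forms the type II receptor with Il4ra, was the lowest chain at 0.07 and 0.26 TPM, from 3 and 11 reads. Above Stat4, the interleukin-12 receptor chains were unequal: Il12rb1 was at 12.4 and 15.8 TPM, and Il12rb2 at 1.59 and 0.89 TPM, from 58 and 31 reads. Their ratio was 7.82 and 17.7 in the 2 libraries by TPM, and 4.01 and 7.89 by the M4 counts per length. Above Stat3, Il6ra, Il6st, Il21r, Il10ra and Il10rb were all above 10 TPM, and Il23r was at 0.20 and 0.25 TPM.

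All 4 Janus kinases were above 10 TPM. Jak1 led at 256 and 260 TPM, while Tyk2, Jak2 and Jak3 lay between 14.0 and 25.2 TPM in each library. Of 11 inhibitors of this signalling, 8 reached 10 TPM. The phosphatase Ptpn6 (104 and 128 TPM), the STAT inhibitor Pias1 (108 and 104 TPM) and the cytokine-induced Cish (87.9 and 101 TPM) were highest. Socs3, which restrains STAT3 signalling, was at 32.1 and 34.6 TPM. Socs1 was lowest at 3.5 and 4.09 TPM.

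Of 11 other helper lineage factors, 8 reached 10 TPM, and 6 reached 10 in the FPKM unit. The AP-1 factor Batf (118 and 131 TPM), the Ikaros-family factor Ikzf3 (94.0 and 92.0 TPM) and Maf (92.7 and 85.5 TPM) were in the range of the upper 5 regulators or just above it by TPM. By the M4 counts per kb, scaled to the total counted, Maf was at 7.56 and 6.56, near Bcl6 (5.78 and 6.57) and below Rora (48.6 and 41.7), so its place rests on the M21 tables. Irf4, the partner of BATF, was at 19.99 and 18.9 TPM. Hlx, a partner of T-bet, was lowest with 0 and 1 read.

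Genes linked to each lineage factor were counted beside the factor itself. Of all protein-coding genes, 30.5% reached 10 TPM. Of 10 genes linked to GATA3, type 2 cells or tissue regulatory T cells, 6 reached 10 TPM, led by Gzmb (107 and 98.7 TPM), Ccr8 (54.4 and 58.0 TPM) and Ccr4 (32.4 and 30.1 TPM). The interleukin-33 receptor gene Il1rl1 was at 13.4 and 10.1 TPM. Areg, of the same list, was at 1.38 and 1.76 TPM, from 20 and 24 reads. The type 2 cytokines were low or absent, with Il4 at 6.69 and 3.59 TPM, Il5 at 3 reads in each library and Il13 at 0 reads in both. Of 6 genes linked to T-bet, 5 reached 10 TPM although Tbx21 did not, led by Cxcr3 (190 and 202 TPM), Il18r1 (81.0 and 76.4 TPM) and Il18rap (17.8 and 24.5 TPM). Ifng was lowest at 6.70 and 7.07 TPM. In the FPKM unit, 3 of these 6 reached 10, as did 4 of the 10 genes linked to GATA3, type 2 cells or tissue regulatory T cells.

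Of 8 BCL6 corepressors and follicular genes, 6 reached 10 TPM, with the costimulator Icos at 450 and 454 TPM, the adaptor Sh2d1a at 265 and 253 TPM and the inhibitory receptor Pdcd1 at 87.5 and 99.9 TPM. The follicle-homing receptor Cxcr5 was at 37.2 and 42.8 TPM, and the corepressor Bcor at 16.4 and 15.9 TPM. Ascl2 was lowest, with 1 and 4 reads. Bcl6 itself lay below all of these except Tox2 (3.56 and 3.24 TPM), which it overlapped, and Ascl2.

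RNA for the proteins that hold AHR in the cytoplasm was high by TPM. Hsp90ab1 was at 632 and 793 TPM and Ptges3 at 216 and 220 TPM. By the M4 counts per kb, scaled to the total counted, Hsp90ab1 was at 555 and 582 but Ptges3 at 4.54 and 5.37. The place of Ptges3 thus rests on the M21 tables. Arnt, the partner of AHR on DNA, was at 18.3 and 22.5 TPM. The genes that AHR is known to induce were lower by TPM, though Tiparp exceeded Ptges3 by the M4 counts per kb, at 12.8 and 8.42. Tiparp was at 6.92 and 4.97 TPM and Nqo1 at 3.16 and 2.05 TPM, Ahrr had 10 and 1 reads, Cyp1a1 had 1 and 0 reads, and Cyp1b1 had 0 in both. In all, 3 of the 8 genes of this list reached 10 TPM, and none of these 3 belonged to the induced genes.

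Of 15 partners and responsive genes of PPARγ and ROR factors, 5 reached 10 TPM, and 4 reached 10 in the FPKM unit. The corepressor Ncor1 was highest at 142 and 143 TPM, followed by the fatty acid-binding Fabp5 at 39.2 and 31.6 TPM and Cpt1a at 13.9 and 15.5 TPM. Rxra and Rxrb, the partners of PPARγ, were at 5.80 and 6.90 and at 5.47 and 6.67 TPM. Cd36, which PPARγ is known to induce, had 3 and 8 reads, Fabp4 had 1 and 0, and Rxrg had 0 in both. Other responsive genes of this list differed in level. Plin2 was at 12.3 and 15.3 TPM and Angptl4 at 3.61 and 2.55 TPM, while Pdk4 had 2 reads in each library. Among 5 further paralogues of the regulators, only Gata1 reached 10 TPM, and Bcl6b had 3 reads in each library and Tbr1 had 0.

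**Figure D5:**
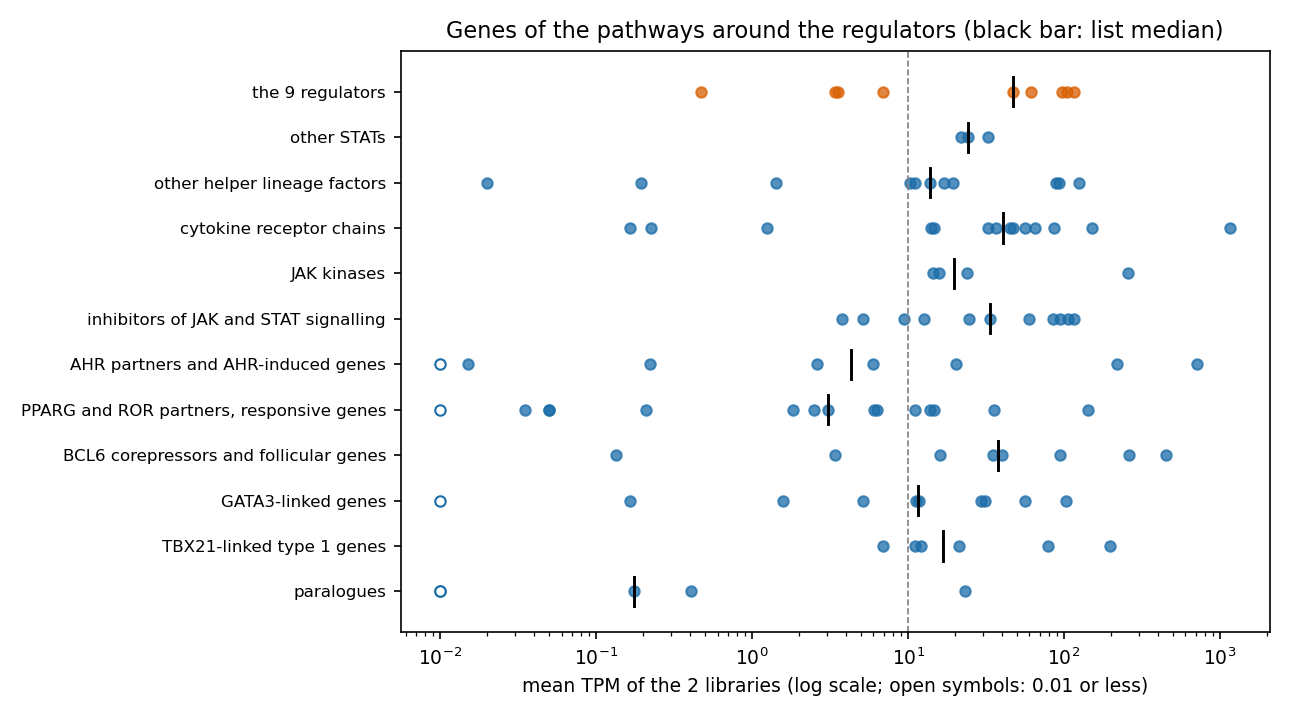
Mean TPM over the 2 libraries (log axis) of the 9 regulators and of the genes in 11 related lists, 1 point a gene, with a black bar at each median and a dashed line at 10 TPM. The regulators span 0.47 to 116 TPM, with a gap between Ahr at 6.92 and Rora at 47.2. The row of GATA3-linked genes also holds genes linked to type 2 cells or tissue regulatory T cells.

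The labelled cell type was checked against its markers. All 6 regulatory T cell markers reached 10 TPM, from Foxp3 up to Izumo1r at 734 and 859 TPM, and all 5 T cell markers reached 100 TPM. With protein-coding transcripts only, Foxp3 was at 5.88 and 2.37 TPM and did not reach 10. No list covered conventional helper T cells, so their share was not checked. Markers of cells that also use these regulators were low. The summed TPM of 6 markers of type 2 innate lymphoid and mast cells was 3.30 and 2.85, with Fcer1a and Il13 at 0 reads, and that of 4 markers of type 3 innate lymphoid and Th17 cells was 0.27 and 0.48, with Il17a and Il22 at 0 reads. For 4 natural killer markers the sum was 1.94 and 2.18 TPM with Ncr1 at 0 reads. For 6 macrophage and monocyte markers it was 3.85 and 6.25 with Cd14 at 0, for 3 B cell markers 1.93 and 2.17, and for 4 adipocyte markers 0.15 and 0.84. Cd8b1 stood at 9.94 and 14.8 TPM, while its partner Cd8a stood at 1.43 and 0.79. Among the listed markers of other cell types, only Cd8b1 was above 10 TPM by mean. Gata1, described above as an erythroid and mast cell factor, was in none of these lists and stood at 21.9 and 24.7 TPM. A share of 0 reads allows the TPM of up to 3 reads.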

How the data were processed

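Each library had a gene and a transcript table on mm10 with GENCODE M21 and a gene count table on mm10 with GENCODE M4, per the listing that came with each library. The sources used here do not name the tools that made them. Per the file headers, the M21 tables hold an expected count (estimated reads, not always whole), TPM, FPKM and, for transcripts, the percent of the gene's TPM. The whole-number count on M4 has no header, and the deposited M4 counts came to 23.1% and 23.7% of the M21 gene reads. Length minus effective length corresponds to 50-base reads. Rows that name no gene (0.142% and 0.186% of reads) were left out of totals.

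The regulators and the 11 lists (95 genes) and 9 marker lists (40 genes) around them were chosen with earlier results of these data known. The text names all 9 regulators and, from each of the 11 lists, the 3 genes of highest mean TPM, that of lowest and others at choice. Orders within the lists are by TPM, and some change by the M4 counts per kb, scaled to the total counted. Icos was then at 167 and 172 and Sh2d1a at 209 and 212. Marker lists are given mainly as sums. A few further genes are not reported here. No likeness between genes was measured, since 2 technical libraries give no pattern across conditions.

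Levels are the TPM as the authors deposited it, with exact Poisson 95% intervals of the reads. Intervals and the 3-read floor cover counting error only. Expected counts were rounded, and genes with a summed count of 10 or more were compared with library 2's share of the total by an exact binomial test (two-sided as 2 times the smaller tail), with Benjamini-Hochberg adjustment. Log2 ratios add 0.5 to each count. The test was checked on counts simulated with Poisson noise alone, which is the noise it assumes. That check does not cover further technical differences between these libraries. Alternatives used edgeR 4.0.16, DESeq2 1.42.0 (R 4.3.3), other filters, FPKM, coding transcripts only, the M4 counts, and each library alone. The M4 counts per kb use the M21 gene-table length. The rest ran in Python 3.11.15 (scipy 1.17.1, pandas 2.3.3, numpy 2.4.6, matplotlib 3.10.9). Promoter windows came from RefSeq (GRCm38.p6) and coding sequences from GENCODE M21 transcripts.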

Additional observations from a re-analysis of the deposited data

How the results depend on the processing

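The upper 5 genes (Stat4, Stat6, Gata3, Stat3 and Rora) were the same under FPKM, protein-coding transcripts, M4 counts per length and each library alone, though the order within them changed. The count at or above 10 TPM was 5 under each of these and at 20 TPM, and 6 at 5 TPM. It was 5 without replicate 1 and without replicate 2. The leading transcript was the same for 9 of 9 genes in each library, though Tbx21 has only 1 transcript and could not change. The number of genes differing between the libraries was 4185 with TMM library sizes, 4190 with DESeq2 size factors, 3696 with no filter and 3798 with a summed count of 50 or more. It was 492 with edgeR's exact test at a dispersion of 0.01 and 1085 with the M4 counts, which hold fewer reads. For the regulators these counts were 4, 4, 3, 4, 0 and 4. With the M4 counts the 4 were Stat3, Stat6, Stat4 and Rora, and Gata3 did not pass (exact binomial test, adjusted p = 0.140). The ratio of Ahr to Tbx21 turned from 1.96 to 0.99 with the M4 counts, and the cause was not tested. M4 counts were a median of 38.9% of the M21 reads for genes of 1 to 10 TPM, 44.5% for 10 to 100 TPM, 28.7% for 100 to 1000 TPM and 1.86% above 1000 TPM. These 2 libraries cannot show stability: with 2 values, each lies within 1 SD of their mean. No paired analysis was possible because there is 1 group. Depth limits Pparg, at 12 and 7 reads, most.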
